A study of Mus musculus with 4 samples.

Results

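The MHC class II genes of the mouse were followed across 4 pools of small intestinal RNA. The genes were taken by name: the classical chains H2-Aa, H2-Ab1 and H2-Eb1, the invariant chain Cd74, the peptide editors H2-DMa, H2-DMb1 and H2-DMb2, the inhibitors H2-Oa and H2-Ob, and the transactivator Ciita. These 10 genes had 22 probe sets of the 45101 on the Affymetrix whole-genome mouse array, of which 19 were listed for 1 gene and 3 were shared with a second gene. The tissue was the whole small intestine of C57BL/6 mice. CF mice were homozygous for the Cftr tm1Unc null allele, which removes the CFTR anion channel from every cell, and WT mice were their wild-type littermates. CF + lubiprostone and WT + lubiprostone mice received lubiprostone, a laxative that opens epithelial chloride channels, by daily gavage for 2 weeks at 10 µg/kg/day. CF control and WT control mice received none, and whether they were gavaged is not given in the sources used here. Every pool came from animals on the same liquid diet. Their age is not given in the sources used here.

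Equal amounts of RNA were pooled from 8 CF + lubiprostone, 10 CF control, 7 WT + lubiprostone and 10 WT control mice (the methods list fewer mice for the WT control pool). Each pool was hybridized to 1 array, so every value below is 1 signal of 1 pool. No spread between mice can be given, no difference was tested, and pool, array and group cannot be told apart. The signal is a linear intensity that summarizes the probes of a probe set and was scaled so that the trimmed mean of each array was equal. Median signals were 119.6 in CF + lubiprostone, 109 in CF control, 122.5 in WT + lubiprostone and 124 in WT control, and a signal below the median of its array is called dim here. The brightest Cftr probe set had signals of 715 in CF + lubiprostone and 620.2 in CF control, against 2226 in WT + lubiprostone and 2505 in WT control, so the genotypes stood as labelled. Xist, which is expressed in females, had signals of 4062 in CF + lubiprostone, 2509.9 in CF control, 3683 in WT + lubiprostone and 1036 in WT control. It was lowest in WT control, and the part of the sex of the mice in the results below was not tested.

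MHC class II molecules present peptides from endocytosed proteins to CD4+ T cells. An alpha and a beta chain pair in the endoplasmic reticulum and are held by the invariant chain, which fills the groove and guides the complex to endosomes. There H2-DM exchanges the remnant of the invariant chain for antigenic peptides, and H2-DO holds H2-DM back. In the small intestine dendritic cells, macrophages and B cells carry class II constitutively, and villus enterocytes carry it too, more strongly after interferon-gamma. Transcription is switched by Ciita, a coactivator that binds no DNA itself and is recruited by the RFX complex, CREB and NF-Y sitting on the X, X2 and Y boxes of the class II promoters.

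These boxes are shown because they are the feature that class II genes share besides their function. Promoters from RefSeq (build GRCm38.p6, 250 bases before to 50 after a gene's start) were at hand for 7 of the 10 genes, as 8 promoters since H2-DMa has 2. The core letters of the Y box (GATTGG), the X box (AGNAAC, any 2 bases, ATG) and the X2 box (GACGTC, which reads the same on either strand) were searched on both strands. A Y core was found in 7 of the 8 promoters, all but 1 of H2-DMa, against 16.1% of 32851 mouse promoters. In the other H2-DMa promoter it lay 199 bases upstream of the start, farther than in the rest, and no window is shown for it. An X core followed within 40 bases by a Y core on the same strand was found in only 4 promoters of that table (0.0122%), those of H2-Eb1, H2-DMb1, H2-Ob and H2-Eb2. The windows below run from 50 bases before the Y core to 14 bases after it on the gene's own strand, with the cores found in capitals.
H2-Aa (chr17:34287853-34287922, minus strand): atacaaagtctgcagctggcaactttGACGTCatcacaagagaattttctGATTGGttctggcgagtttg
H2-Eb1 (chr17:34305757-34305826, plus strand): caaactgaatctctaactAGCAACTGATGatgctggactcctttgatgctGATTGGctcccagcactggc
H2-DMb1 (chr17:34153079-34153148, plus strand): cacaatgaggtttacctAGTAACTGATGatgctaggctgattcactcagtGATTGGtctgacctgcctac
H2-DMb2 (chr17:34145108-34145177, plus strand): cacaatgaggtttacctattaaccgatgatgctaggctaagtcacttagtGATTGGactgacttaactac
H2-Oa (chr17:34092285-34092354, plus strand): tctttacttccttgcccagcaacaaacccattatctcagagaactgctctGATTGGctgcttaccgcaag
H2-Ob (chr17:34238797-34238866, plus strand): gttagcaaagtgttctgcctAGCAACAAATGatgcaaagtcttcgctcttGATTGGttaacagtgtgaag

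In these 6 windows the Y core lay between 44 (H2-Oa) and 91 bases (H2-DMb2) upstream of the start. The X core preceded it by 30 bases in H2-Ob, 32 in H2-Eb1 and 33 in H2-DMb1. In H2-Aa the X2 core lay 73 bases upstream of the start, and the letters of the X core were not matched in H2-Aa, H2-DMb2 or H2-Oa. The cores did not overlap in any window. H2-DMb1 and H2-DMb2, neighbouring genes, shared 61 of 70 bases in this window (87.1%), while the other pairs shared 19 to 30. The beta chain genes of H2-DM are also hard to separate on the array, as described below. A match of letters is a description of the sequence and was not tested as a binding site. Along chromosome 17 the order was H2-Oa, H2-DMa, H2-DMb2, H2-DMb1, H2-Ob, H2-Ab1, H2-Aa and H2-Eb1, with Psmb9, Tap1, Psmb8 and Tap2 of the class I pathway lying between H2-DMb1 and H2-Ob. Cd74 lies on chromosome 18 and Ciita on chromosome 16.

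H2-Aa encodes the alpha chain of I-A, the main class II molecule of C57BL/6 mice. Its brightest probe set (1435290_x_at) had a signal of 10836 in CF + lubiprostone and 7816 in CF control, and of 8205 in WT + lubiprostone and 9253 in WT control. A less bright one (1452431_s_at) had 3161 in CF + lubiprostone and 2429 in CF control, and 2519 in WT + lubiprostone and 3630.2 in WT control. Both placed CF + lubiprostone and WT control above CF control and WT + lubiprostone. The dimmest (1443783_x_at) had 599 in CF + lubiprostone, 358 in CF control, 516 in WT + lubiprostone and 606 in WT control. The remaining one (1438858_x_at) had 5646 in CF + lubiprostone, 5556 in CF control, 6528 in WT + lubiprostone and 6639 in WT control, so that it separated the genotypes but hardly the treatments. Signals are compared between pools only, since the brightness of different probe sets does not rank their transcripts. The suffixes x and s mark probe sets whose probes may also bind transcripts of related genes, which holds for all 4 of H2-Aa and for 8 of the 19 class II probe sets listed for 1 gene.

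H2-Ab1 encodes the beta chain that pairs with H2-Aa. Its 3 probe sets were brightest in WT control. Probe set 1425477_x_at had 2305 in CF + lubiprostone and 1531 in CF control, and 2069 in WT + lubiprostone and 2633 in WT control. Probe set 1451721_a_at had 2875 in CF + lubiprostone and 2106 in CF control, and 2467 in WT + lubiprostone and 3608 in WT control. Both placed CF control lowest. The third probe set (1450648_s_at) did not separate the CF pools, with 3175 in CF + lubiprostone and 3248 in CF control, while WT + lubiprostone was lowest at 2537 against 3773 in WT control.

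H2-Eb1 encodes the beta chain of I-E, which reaches the surface poorly in C57BL/6 mice because their alpha chain gene H2-Ea is disabled. The signal of H2-Eb1 was 5595 in CF + lubiprostone and 4129 in CF control, and 4542 in WT + lubiprostone and 5811 in WT control. H2-Ea, listed apart from the 10 genes, was dim at 68.7 in CF + lubiprostone and 61.3 in CF control, and just above the median at 136 in WT + lubiprostone and 146 in WT control. Cd74, the invariant chain, was measured by 1 probe set with 11420.5 in CF + lubiprostone and 8801 in CF control, and 8520.5 in WT + lubiprostone and 11100.5 in WT control. H2-Eb1 and Cd74 thus showed the same layout, with the treated CF pool and the untreated WT pool above the other two pools.

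**Figure D1:**
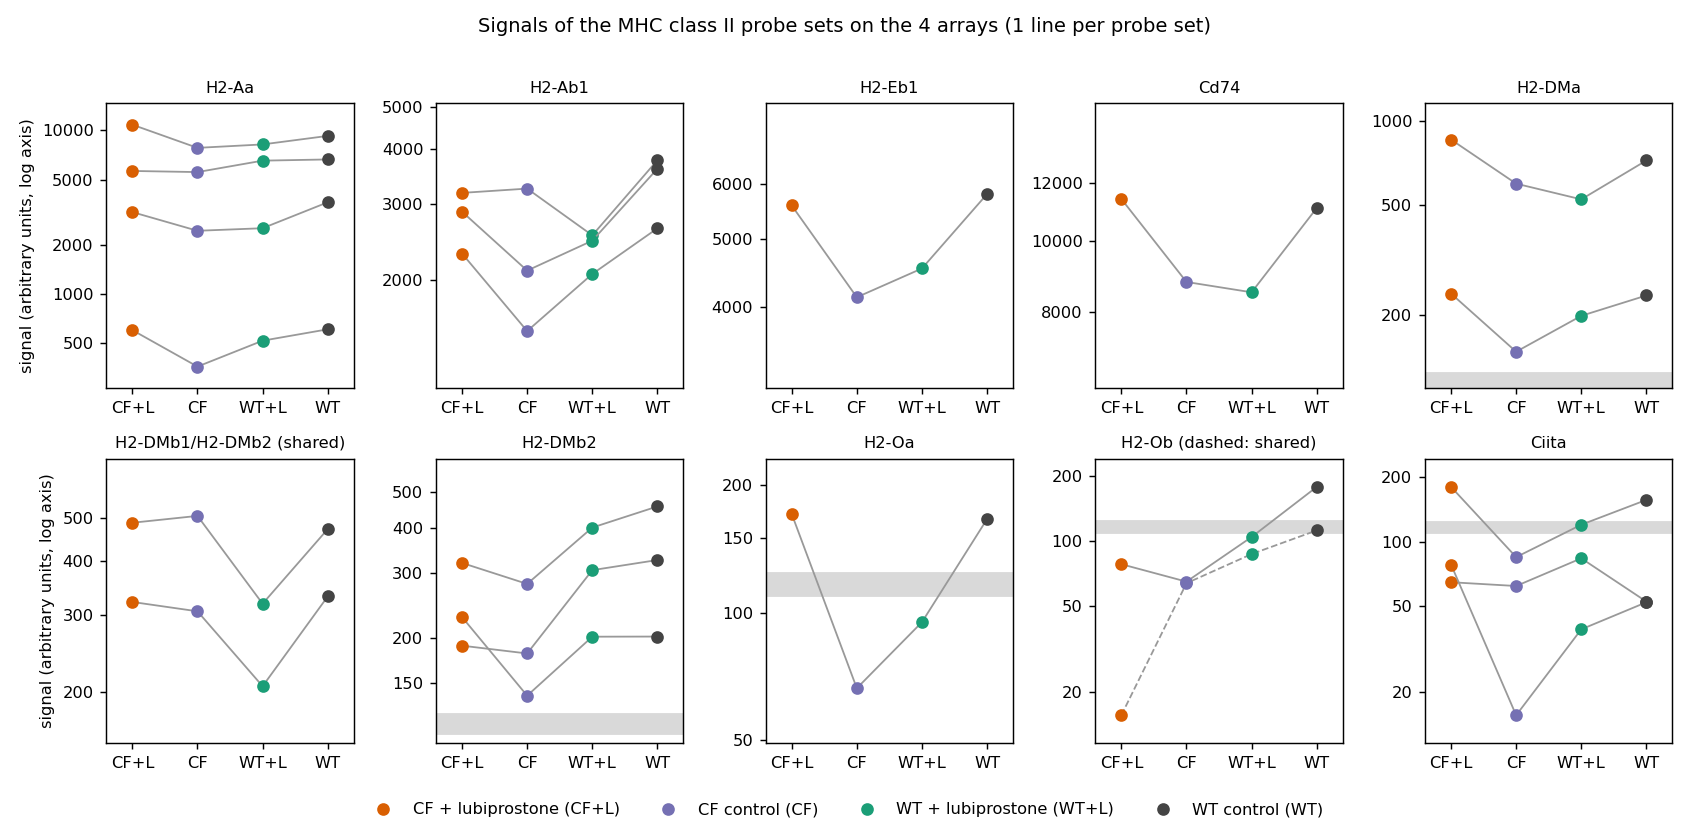
Signals of the class II probe sets in the 4 pools (x axis, from left CF + lubiprostone, CF control, WT + lubiprostone, WT control), 1 panel per gene with its own log axis of signal intensity and a line per probe set, shared probe sets drawn apart. The grey band spans the medians of the 4 arrays, 109 to 124, and shows that H2-Oa, H2-Ob and Ciita lay near or below it while the classical chains lay far above.

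H2-DMa encodes the alpha chain of the peptide editor. Its brighter probe set (1422527_at) had 859 in CF + lubiprostone and 596 in CF control, and 523 in WT + lubiprostone and 723 in WT control. The dimmer one (1459872_x_at) had 239 in CF + lubiprostone and 148 in CF control, and 199 in WT + lubiprostone and 236 in WT control. In both, CF + lubiprostone was highest, by a narrow margin over WT control in the dimmer one. H2-DMb1 had no probe set of its own. The probe sets shared by H2-DMb1 and H2-DMb2 set WT + lubiprostone apart and not CF control: 1449580_s_at had 488 in CF + lubiprostone, 506 in CF control, 319 in WT + lubiprostone and 472 in WT control. The other shared one (1418638_at) had 322 in CF + lubiprostone, 306 in CF control, 207 in WT + lubiprostone and 331 in WT control.

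The probe sets listed for H2-DMb2 alone gave another order. Probe set 1443687_x_at had 320.4 in CF + lubiprostone and 281 in CF control, and 400.4 in WT + lubiprostone and 457 in WT control. Probe set 1443686_at had 190.2 in CF + lubiprostone and 181 in CF control, and 306 in WT + lubiprostone and 326 in WT control. These probe sets separated the genotypes, with WT pools above CF pools whatever the treatment. The third (1419744_at) had 228 in CF + lubiprostone and 139 in CF control, against 201 in both WT pools. The copies of the beta chain gene therefore cannot be ranked by these data.

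H2-Oa and H2-Ob encode the chains of H2-DO, which holds H2-DM back chiefly in B cells and thymic epithelium. H2-Oa had 171 in CF + lubiprostone and 66.2 in CF control, and 94.9 in WT + lubiprostone and 166 in WT control, so that it was above the array median in CF + lubiprostone and WT control only. H2-Ob exceeded its array median in WT control alone, with 78.0 in CF + lubiprostone, 64.7 in CF control, 104 in WT + lubiprostone and 178 in WT control. The probe set shared by H2-Ob and the gene model Gm20506 was dim on all arrays, between 15.5 in CF + lubiprostone and 112 in WT control. Ciita was carried by 1 probe set (1421210_at) with 179.7 in CF + lubiprostone and 84.8 in CF control, and 119.9 in WT + lubiprostone and 156 in WT control. It too was above the median in CF + lubiprostone and WT control only, and its other probe sets were dim on all arrays (15.6 to 83.7).

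To compare pools, probe sets at or above the array median on at least 1 of the 4 arrays were kept, and the log2 signals of a gene's own kept probe sets were averaged. This left 12259 genes, among them 9 of the 10 class II genes (all but H2-DMb1) with 17 own probe sets and 2 shared ones. Where a gene has several probe sets, the SD of their log2 ratios is given. That SD is a spread between probes of 1 pool, not between mice, and its median over genes was 0.20 to 0.26 across the comparisons. Where the lower of the signals was dim, it was raised to the array median and the fold is a lower bound, written as at least. Since all 4 comparisons draw on the same 4 arrays, they are not separate pieces of evidence.

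The comparison of CF control with WT control sets the genotypes against each other without drug. All 9 class II genes measured were lower in CF control, and their median log2 ratio was -0.59 against -0.02 over all genes kept. H2-Ob had been kept only through WT control, and H2-Oa and Ciita only through WT control and CF + lubiprostone, so that the filter took part in setting the direction of these 3 genes. The other 6 were above the median in all 4 pools, and 6 of 6 were lower (median log2 ratio -0.48). H2-DMb2 was 1.62-fold lower (log2 ratio -0.70, SD 0.16, n = 3 probe sets) and H2-Ab1 1.51-fold lower (log2 ratio -0.59, SD 0.33, n = 3 probe sets). H2-Eb1 was 1.41-fold lower, H2-DMa 1.39-fold (SD 0.28 on the log2 scale, n = 2 probe sets), H2-Aa 1.38-fold (SD 0.25, n = 4 probe sets) and Cd74 1.26-fold. With dim signals in CF control, H2-Ob was at least 1.63-fold lower, H2-Oa at least 1.52-fold and Ciita at least 1.43-fold, and with these bounds the class II median was -0.52. Any lower value was found for 52.3% of all genes kept, and for 46.7% of the genes whose mean signal reached the 75th percentile, to which H2-Aa, H2-Ab1, H2-Eb1 and Cd74 belong. By the measured signals, 5 of the 9 were at least 1.5-fold lower (H2-Ob, H2-Oa, Ciita, H2-DMb2 and H2-Ab1), against 12.2% of all genes lower and 8.05% higher by that much. With dim signals raised to the median, 4 of the 9 were (all of these but Ciita), against 8.17% of all genes. With the arrays scaled to the same median, these shares over all genes were 8.21% lower and 14.2% higher. Of 19 kept class II probe sets, 18 were lower (51.7% of all kept probe sets), the exception being the shared 1449580_s_at at 1.07 times its WT control signal.

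In WT mice lubiprostone was accompanied by lower class II signals. All 9 genes and all 19 kept probe sets were lower in WT + lubiprostone than in WT control, against 50.6% of all genes, 48.2% of bright genes (those at the 75th percentile and above) and 50.9% of all probe sets. H2-Oa, H2-Ob and Ciita were dim in WT + lubiprostone, and the filter took part in setting their direction here too. Of the 6 genes above the median in all pools, 6 were lower. The median log2 ratio of the 9 class II genes was -0.38, against -0.0041 over all genes. H2-Ab1 was 1.40-fold lower (log2 ratio -0.49, SD 0.12, n = 3 probe sets), Cd74 1.30-fold, H2-Eb1 and H2-DMa 1.28-fold, H2-Aa 1.18-fold (log2 ratio -0.24, SD 0.21, n = 4 probe sets) and H2-DMb2 1.07-fold. H2-DMb2 and H2-Aa thus differed by about the spread of their own probe sets. The dim genes were lower by at least 1.45-fold (H2-Ob), 1.36-fold (H2-Oa) and 1.28-fold (Ciita), and with these bounds the class II median was -0.36. By the measured signals, which were dim in WT + lubiprostone, H2-Oa and H2-Ob were at least 1.5-fold lower, as were 5.67% of all genes, but with dim signals raised to the median 0 of the 9 genes were. The shared probe sets of H2-DMb1 and H2-DMb2 were lower as well, with ratios of 0.627 (1418638_at) and 0.675 (1449580_s_at). The WT control array is the denominator here and in the comparison before, and a high signal on it lowers both.

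In CF mice the class II signals stood the other way. All 9 genes had a higher signal in the treated than in the untreated CF pool, against 51.8% of all genes and 47.5% of bright ones. H2-Ob was dim in both CF pools and has no measured direction, which leaves 8 of 8 genes. H2-Oa and Ciita among these were kept only through CF + lubiprostone and WT control, so that the filter took part in setting their direction. Of the 6 genes above the median in all pools 6 were higher. The median of the 9 log2 ratio was 0.40 against 0.02 over all genes. H2-DMa had a ratio of 1.53 (log2 0.61, SD 0.12, n = 2 probe sets), H2-Eb1 1.36, H2-Aa 1.32 (log2 0.40, SD 0.30, n = 4 probe sets), Cd74 1.30, H2-Ab1 1.26 (log2 0.34, SD 0.33, n = 3 probe sets) and H2-DMb2 1.25 (log2 0.33, SD 0.34, n = 3 probe sets). For H2-DMb2 the difference was smaller than the spread of its probe sets, and for H2-Ab1 it was about as large. Ciita was at least 1.64-fold and H2-Oa at least 1.57-fold higher in CF + lubiprostone, and for H2-Ob no fold is given. At least 1.5-fold higher by the measured signals were H2-Oa, Ciita and H2-DMa, as were 9.99% of all genes. Among the kept probe sets 17 of 19 were higher (51.5% of all), the exceptions being 1450648_s_at of H2-Ab1 at 0.978 and the shared 1449580_s_at at 0.965 of the CF control signal. The CF control array is shared with the comparison of CF control and WT control.

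**Figure D2:**
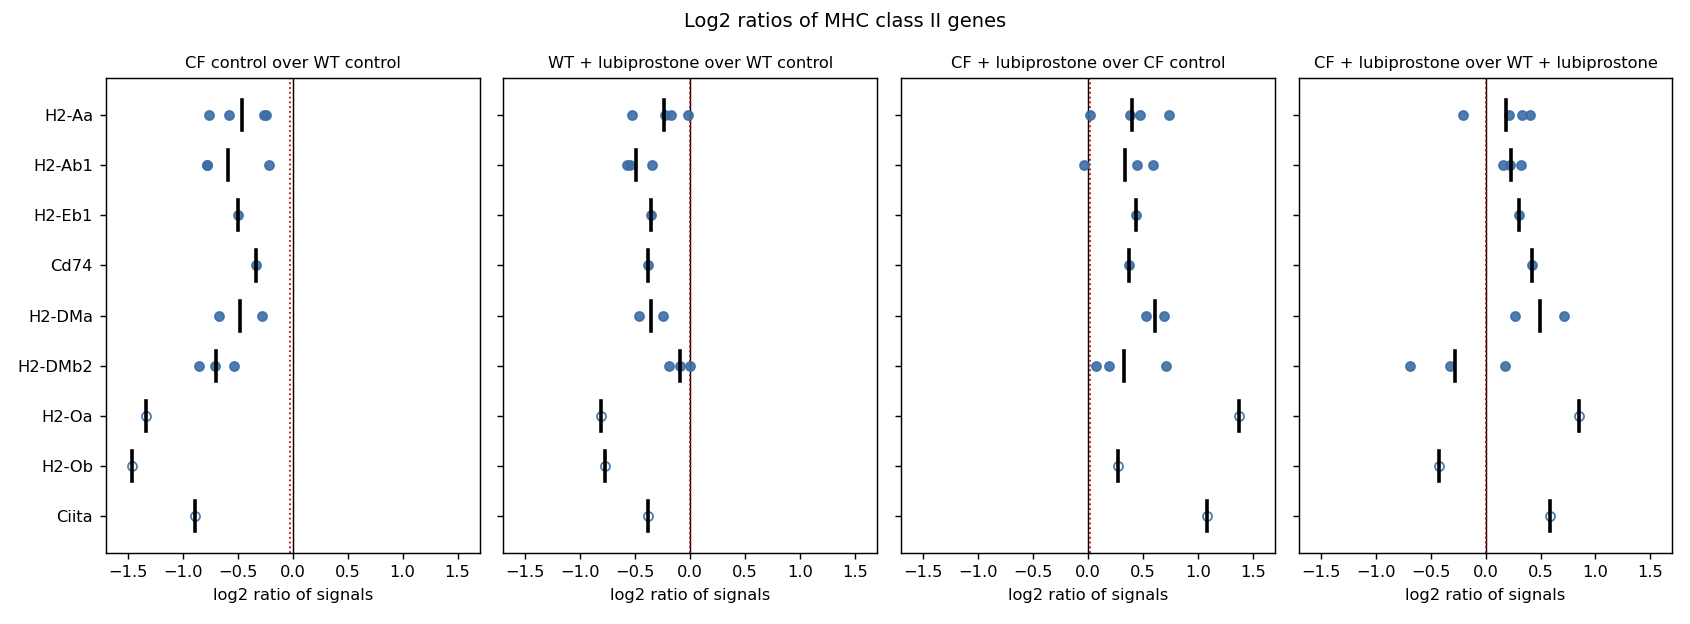
Log2 ratio of the kept probe sets listed for 1 class II gene (dots, open where 1 or both signals compared were below the array median) and their mean per gene (black bars) in the 4 comparisons, with the median of all 12259 genes as a red dotted line. The gene means lie below that line in both comparisons with WT control and above it in the comparison of the CF pools.

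The treated pools were also compared with each other, and neither array of this pair enters the comparison of CF control with WT control. In CF + lubiprostone 7 of the 9 genes were higher than in WT + lubiprostone, against 50% of all genes and 50.6% of bright ones, and the median log2 ratio was 0.30. Of the kept probe sets 15 of 19 were higher, against 50.1% of all. H2-DMa (log2 ratio 0.49, SD 0.32, n = 2 probe sets), Cd74 (0.42), H2-Eb1 (0.30), H2-Ab1 (0.23, SD 0.08, n = 3 probe sets) and H2-Aa (0.18, SD 0.27, n = 4 probe sets) were higher, the last by less than the spread of its probe sets. H2-Oa was at least 1.40-fold and Ciita at least 1.47-fold higher. Both were kept only through CF + lubiprostone and WT control, so that the filter took part in setting their direction. Of the 6 genes above the median in all pools, 5 were higher. H2-Oa alone was at least 1.5-fold higher by the measured signals, which 8.56% of all genes were. H2-DMb2 was lower (log2 ratio -0.28, SD 0.43, n = 3 probe sets), by less than the spread of its probe sets, and H2-Ob was dim in both treated pools. The probe sets shared by H2-DMb1 and H2-DMb2 had ratios of 1.56 (1418638_at) and 1.53 (1449580_s_at), as against 1.13 (1419744_at), 0.80 (1443687_x_at) and 0.621 (1443686_at) for those listed for H2-DMb2 alone.

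Put together, lubiprostone was accompanied by lower class II signals in WT mice and by higher ones in CF mice for 9 of 9 genes by their signals (H2-Ob being dim in both CF pools), a layout that 22.8% of all genes and 18% of bright genes also had. Of the 6 genes above the median in all pools, 6 had it. The log2 ratio for lubiprostone in CF mice minus that in WT mice had a median of 0.83 over the class II genes, against 0.02 over all genes, and 0.79 with dim signals raised to the median. It ranged between 0.42 for H2-DMb2 and 0.97 for H2-DMa over the 6 genes above the median in all pools. For the genes with dim signals it was 1.09 for H2-Oa and 1.07 for Ciita with those signals raised to the median. It was 0.67 for H2-Ob, whose CF part (0.13) is then only a ratio of array medians and no measured direction. For the bright genes H2-Aa, H2-Ab1, H2-Eb1 and Cd74 it was 0.64, 0.83, 0.79 and 0.76, and the median of bright genes was -0.03. The stricter layout, with both CF + lubiprostone and WT control above both other pools, was met by 7 of the 9 class II genes, all but H2-DMb2 and H2-Ob, against 12.1% of all genes and 8.14% of bright ones. H2-Oa and Ciita were kept only through CF + lubiprostone and WT control, so that the filter took part in setting their layout. Of the 6 genes above the median in all pools, 5 met it. These differences between genotypes rest on 1 pool each and were not tested.

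**Figure D3:**
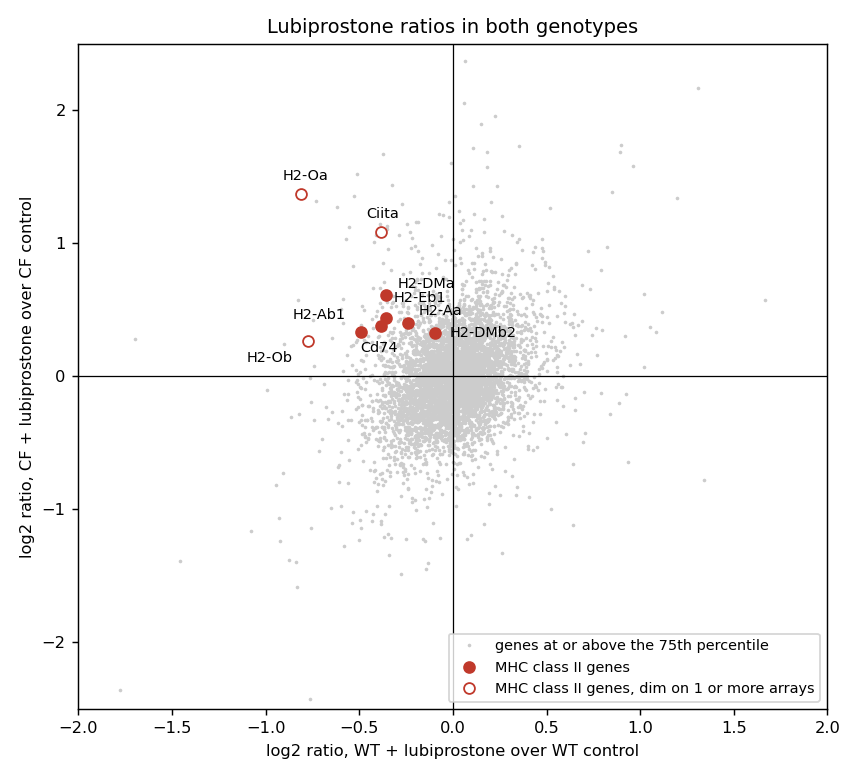
Log2 ratio of WT + lubiprostone over WT control (x axis) and of CF + lubiprostone over CF control (y axis) for each gene, with 5395 bright genes in grey (18 lie outside the axes) and the class II genes named, open circles marking H2-Oa, H2-Ob and Ciita, whose signals were dim in some pools. The 9 class II genes lie in the upper left part of the plot, lower with lubiprostone in WT mice and higher in CF mice.

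How alike the class II genes were among themselves was described by the root mean square difference of each gene's centred log2 signals from the mean profile of H2-Aa, H2-Ab1, H2-Eb1 and Cd74 over the 4 arrays. It was 0.018 for H2-Eb1, 0.051 for H2-Aa, 0.064 for H2-Ab1 and 0.068 for Cd74, which make up that mean, and 0.094 for H2-DMa, which does not. H2-DMb2 was farther off at 0.22, as were the dim genes Ciita at 0.25, H2-Oa at 0.39 and H2-Ob at 0.45. Among 5391 other bright genes the nearest were Txnip (0.038), which encodes a thioredoxin-binding protein, Pttg1 (0.042), the securin of cell division, Ifit3 (0.044), an interferon-induced gene, Daam1 (0.045), a formin, and Dot1l (0.046), a histone methyltransferase. Ifit3, for example, had signals of 797 in CF + lubiprostone and 638 in CF control, and of 699 in WT + lubiprostone and 839 in WT control. With 4 arrays, genes as near as H2-Aa are thus found outside the class II family.

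Of 9 related genes, 7 encode factors that bind the class II promoters (the RFX subunits, the NF-Y subunits and Creb1). Among these 7, 3 were lower in the CF control than in the WT control pool (median log2 ratio 0.03), 3 were lower in the treated than in the untreated WT pool (median 0.10) and 5 were lower in the treated than in the untreated CF pool (median -0.24). Over all genes 52.3% and 50.6% were lower in the first 2 of these comparisons, and 51.8% were higher between the CF pools. The other related genes were H2-Ea, given above, and H2-Eb2, a further class II beta chain gene, which was above the median in all pools with 149 in CF + lubiprostone, 163 in CF control, 124.3 in WT + lubiprostone and 137 in WT control. H2-Eb2 was thus higher in both CF pools than in either WT pool, unlike H2-Eb1. Rfx5, the DNA-binding subunit of RFX, had gene signals of 546 in CF + lubiprostone, 354 in CF control, 434 in WT + lubiprostone and 379.6 in WT control, a log2 ratio of 0.62 between the CF pools. Nfya had 315 in CF + lubiprostone, 458 in CF control, 399 in WT + lubiprostone and 475 in WT control. Nfyb had 760.5 in CF + lubiprostone, 632 in CF control, 672 in WT + lubiprostone and 621 in WT control. Nfyc was the brightest of the group and was lowest in CF + lubiprostone (1483), against 1897 in CF control, 1919.8 in WT + lubiprostone and 1786 in WT control. Creb1 was 1.51-fold lower in the treated than in the untreated CF pool, where 6.77% of all genes were at least 1.5-fold lower.

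Genes for antigen processing shared the layout of the class II genes in CF mice but not in WT mice. Of 11 listed, 10 were kept (Marchf1, a ligase that removes class II from the surface, was dim on all arrays), and none differed by 1.5-fold between CF control and WT control, between WT + lubiprostone and WT control, or between CF + lubiprostone and CF control. Between the treated pools 7 of the 10 were higher in CF + lubiprostone (median 0.19), Lgmn (1.66-fold), an endosomal legumain, and Ctsl (1.56-fold) by at least 1.5-fold. Over all genes 50% were higher there, and 8.56% by at least 1.5-fold. In CF mice 9 of the 10 were higher with lubiprostone (median log2 ratio 0.28), which the class II genes shared, but in WT mice 8 of the 10 were higher too (median 0.06), which they did not. Over all genes 51.8% were higher with lubiprostone in CF mice, and 50.6% were lower in WT mice. Ctss, the cathepsin that trims the invariant chain, had gene signals of 10577.5 in CF + lubiprostone, 8631 in CF control, 10144 in WT + lubiprostone and 9141 in WT control. Ctsl, a cathepsin of the thymic epithelium, had a log2 ratio of 0.30 for lubiprostone in CF mice and 0.02 in WT mice. Tmem176b had 0.01 in CF mice and -0.09 in WT mice. Ifi30, the thiol reductase of endosomes, was the only one lower with lubiprostone in CF mice (log2 ratio -0.16).

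The median of the interferon-gamma axis had the sign of the class II median in 3 of the 4 comparisons. Ifng itself was dim on all arrays, and 18 of the 21 genes listed were measured. With lubiprostone 13 of 18 were lower in WT mice (median log2 ratio -0.17, with 50.6% of all genes lower) and 13 of 18 were higher in CF mice (median 0.38, with 51.8% of all genes higher). In CF + lubiprostone 14 of 18 were higher than in WT + lubiprostone, 9 of them by at least 1.5-fold, against 50% and 8.56% of all genes (median 0.71, or 0.48 with dim signals raised to the median). Between CF control and WT control 10 were higher and 8 lower (median 0.18), unlike the class II genes, which were all lower. At least 1.5-fold higher in the treated than in the untreated CF pool were 7 of 18 genes, against 9.99% of all genes, among them the chemokine Cxcl10 and the GTPase Igtp (named after their values were seen), and Ido1 was lower by that much. The 5 genes at least 1.5-fold lower in WT + lubiprostone than in WT control were Cxcl10, Gbp6, Irgm2, Ido1 and Socs1, of which Socs1 was dim in both pools. Igtp had gene signals of 3960.1 in CF + lubiprostone, 1838 in CF control, 1166 in WT + lubiprostone and 1487 in WT control. The brightest genes of the axis had log2 ratios for lubiprostone in CF mice of 0.46 for Irf8, 0.31 for Ifngr1, 0.01 for Jak2 and -0.06 for Irf1.

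The class I pathway was measured by 12 of 13 genes. In CF mice 10 of 12 were higher with lubiprostone (median log2 ratio 0.13), against 51.8% of all genes. In WT mice 10 of 12 were lower (median -0.08), against 50.6% of all genes. CF control was lower than WT control for 6 of 12 (median -0.01), against 52.3% of all genes. B2m, the light chain of class I, had a log2 ratio of 0.05 for lubiprostone in CF mice and -0.07 in WT mice. H2-K1, a classical heavy chain, had 0.12 in CF mice and -0.07 in WT mice. At least 1.5-fold higher in the treated than in the untreated CF pool were Nlrc5, the class I counterpart of Ciita, with a log2 ratio of 1.37, and the peptide transporter gene Tap1 with 1.01. Over all genes 9.99% were higher by that much. Nlrc5 had gene signals of 539 in CF + lubiprostone, 209 in CF control, 183 in WT + lubiprostone and 199 in WT control, so that it was high in 1 pool, whereas Ciita was above the median in that pool and in WT control.

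**Figure D4:**
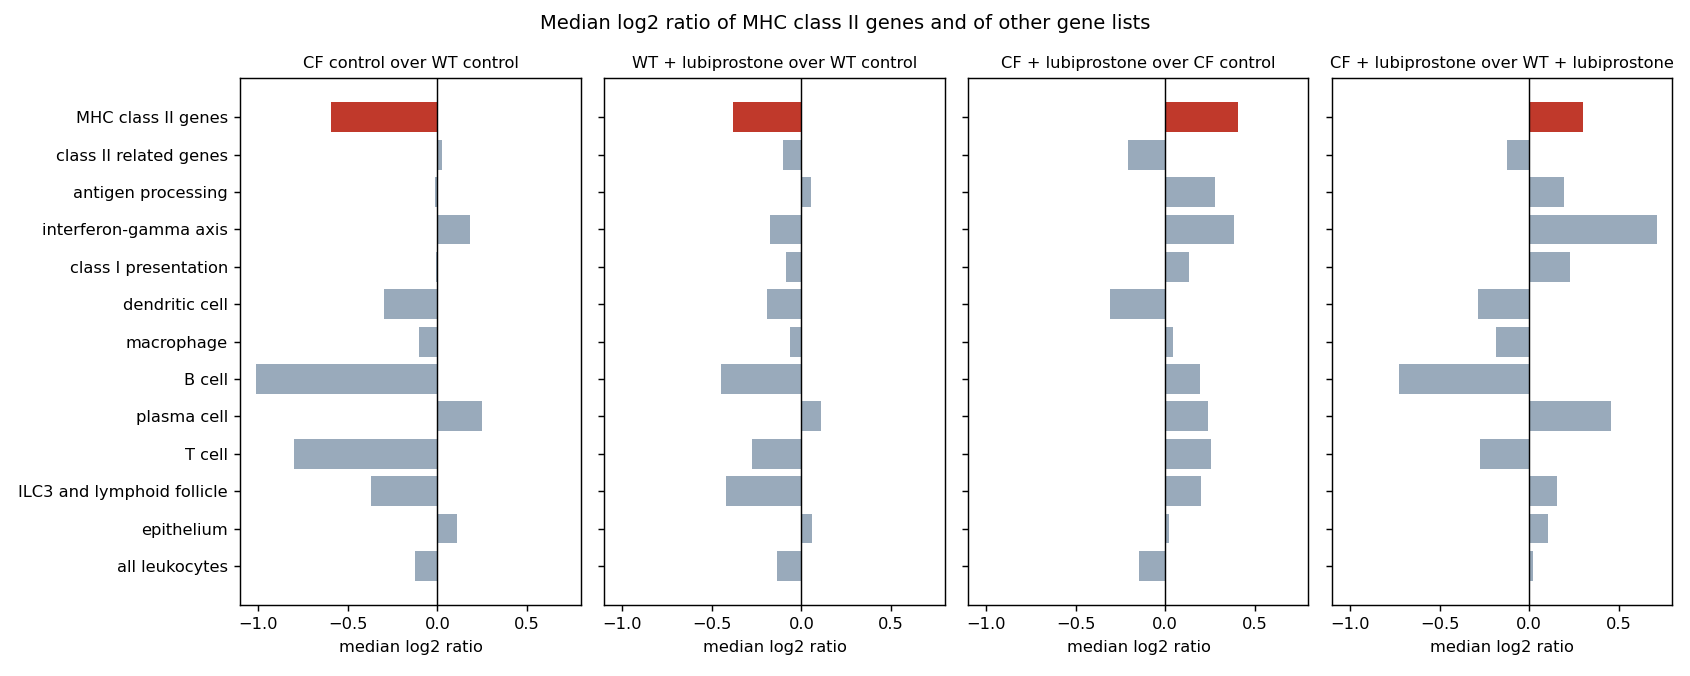
Median log2 ratio of each gene list (rows, class II genes in red) in the 4 comparisons (panels, x axis on the log2 scale). The class II median is -0.59, -0.38, 0.40 and 0.30 in CF control over WT control, WT + lubiprostone over WT control, CF + lubiprostone over CF control and CF + lubiprostone over WT + lubiprostone. The B cell, T cell, dendritic cell, macrophage, leukocyte, lymphoid follicle and class I medians also lie below 0 in the first 2.

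Class II genes are expressed by several cell types of the gut wall, and in whole tissue fewer cells of a type and less RNA per cell cannot be told apart. B cell markers were lower in the CF control than in the WT control pool for 7 of 9 measured genes of 14 listed, each of the 7 by at least 1.5-fold by the measured signals, against 12.2% of all genes (median log2 ratio -1.01). Ms4a1, Fcer2a and Cd37 were above the median in WT control only, and with dim signals raised to the median 4 genes were lower by that much (Bank1, Cd22, Cd79b and Cd79a, median -0.57), against 8.17% of all genes. Their summed signal was 1849.7 in CF + lubiprostone and 1806 in CF control, and 2191 in WT + lubiprostone and 2574 in WT control. Pax5, Blk, Cr2 and Fcrla were dim on all arrays, and Pou2af1, the brightest of the list, which plasma cells express too, was higher in CF control (log2 ratio 0.25). In WT + lubiprostone 7 of 9 B cell markers were lower than in WT control (median -0.45), with 50.6% of all genes lower. With dim signals raised to the median this median was -0.14. In CF mice with lubiprostone 5 of 9 B cell markers were higher and 4 lower (median 0.20), 3 of the 9 being dim in both CF pools. Between the treated pools 6 of 9 were lower in CF + lubiprostone (median -0.73, or -0.23 with dim signals raised to the median), where most class II genes were higher. Over all genes 50% were higher between the treated pools. T cell markers, from cells that do not carry class II in mice, were lower in CF control for 8 of 8 measured genes of 14 (median -0.80) and lower in WT + lubiprostone for 7 of 8 (median -0.27), and in CF + lubiprostone 7 of 8 were higher than in CF control (median 0.26). Over all genes 52.3%, 50.6% and 51.8% ran that way. Between the treated pools 7 of 8 T cell markers were lower in CF + lubiprostone (median -0.28), opposite to most class II genes. Their summed signal was 8463 in CF + lubiprostone and 6229 in CF control, and 9451 in WT + lubiprostone and 10582 in WT control. With dim signals raised to the median, the T cell medians were -0.69, -0.28, 0.26 and -0.20 in these comparisons.

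Dendritic cell markers had summed signals of 4312 in CF + lubiprostone and 3777 in CF control, and 3668 in WT + lubiprostone and 3883 in WT control. Relative to WT control, 6 of the 9 measured markers had a smaller signal in CF control and 3 a larger one (median log2 ratio -0.30). In WT + lubiprostone 8 had a smaller signal and 1 a larger one (median -0.19). Over all genes 52.3% and 50.6% ran that way. With dim signals raised to the median these medians were -0.26 and -0.16. Between the treated pools 5 were lower and 4 higher in CF + lubiprostone (median -0.29). Of the 9 markers 6 were lower in the treated than in the untreated CF pool (median -0.31), with 51.8% of all genes higher. But 3 of the 9 were dim in both CF pools, and of the other 6, 3 were lower and 3 higher. With dim signals raised to the median the list median was 0.13, the value that any gene dim in both pools then takes. Irf8, which B cells and macrophages express too, contributed 2923 in CF + lubiprostone, 2127 in CF control, 2064 in WT + lubiprostone and 1897 in WT control to these sums, and without it they were 1389 in CF + lubiprostone, 1650.2 in CF control, 1603 in WT + lubiprostone and 1986 in WT control. The defining marker Itgax had 493 in CF + lubiprostone, 531 in CF control, 601 in WT + lubiprostone and 652 in WT control, and Xcr1 was dim on all arrays. Macrophage markers were summed to 16464 in CF + lubiprostone and 15600.5 in CF control, and 19009 in WT + lubiprostone and 19997 in WT control. Of these markers 10 of 12 were lower in the CF control than in the WT control pool (median -0.10), against 52.3% of all genes. Only Mertk was at least 1.5-fold lower there, and Cd14 was higher by that much. The markers of all leukocytes added up to 6363 in CF + lubiprostone and 6927 in CF control, and 6775 in WT + lubiprostone and 7616 in WT control. Relative to WT control, 7 of these 10 had a smaller signal in CF control (median -0.13) and 9 of 10 in WT + lubiprostone (median -0.13). The class II genes ran the same way in both. Between the treated pools 5 leukocyte markers were lower and 5 higher in CF + lubiprostone (median 0.02). Of the leukocyte markers 7 of 10 were lower in the treated than in the untreated CF pool (median -0.15), none by 1.5-fold. The class II genes were higher there, as were 51.8% of all genes. Epithelial markers, which identify the tissue, added up to 152322 in CF + lubiprostone and 147540.0 in CF control, and 142950.3 in WT + lubiprostone and 133929 in WT control, with list medians between 0.02 and 0.11 in the 4 comparisons. Plasma cell markers added up to 39562 in CF + lubiprostone and 33029.8 in CF control, and 28196 in WT + lubiprostone and 27440.3 in WT control. Jchain made up most of each sum, with 29467 in CF + lubiprostone, 24431 in CF control, 20844 in WT + lubiprostone and 20562 in WT control. With lubiprostone 7 of 7 plasma cell markers were higher in CF mice (median 0.24), against 51.8% of all genes. In WT mice 5 were higher and 2 lower (median 0.11), with 50.6% of all genes lower. In the list for innate lymphoid cells and lymphoid follicles, 7 of 13 genes were kept, and they were split. In CF control 4 were lower and 3 higher than in WT control (median log2 ratio -0.37), with 52.3% of all genes lower. Ltb and Ccr6 were at least 1.5-fold lower there, and Ccl20 and Gp2 that much higher. In WT + lubiprostone 5 were lower and 2 higher than in WT control (median -0.42), with 50.6% of all genes lower. In CF + lubiprostone 5 were higher and 2 lower than in CF control (median 0.20), with 51.8% of all genes higher. The part of these cell types in the class II signals was not tested.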

How the data were processed

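The authors scanned 1 Affymetrix whole-genome mouse array per RNA pool and, per the labels, extracted signals with GCOS and MAS5, whose versions are not given in the sources used here. The deposited values are intensity signals per probe set on a linear scale, scaled by the authors (the mean without the top and bottom 2% is equal on all arrays), without detection calls. Genes were named from the platform annotation: of 45101 probe sets, 34958 had 1 symbol, 932 had several and 9211 were not named here. For 34754 the symbol was updated by gene identifier. Probe sets at or above the array median on at least 1 array were kept (21756 with 1 symbol, 12259 genes), and their log2 signals were averaged per gene with no offset. A threshold of 1.5-fold was used for counts. Promoters were RefSeq sequences searched by letters.

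The members and lists were chosen with earlier results of these data known. All class II probe sets are given. From each other list the text names up to 4 of the brightest genes members of counts of 5 or fewer and defining markers, any other being said to be named after its values were seen, and the genes nearest to the class II profile were the 5 with the smallest difference. With 1 array per group no test was run, and the number of arrays limits the precision. Other scalings, filters, offsets and ways to average probe sets were tried. The scripts (Python 3.11.15, numpy 2.4.6, pandas 2.3.3, matplotlib 3.10.9) were tested on simulated data.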

Additional observations from a re-analysis of the deposited data

Results flagged for a closer look

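For each of the 9 class II genes measured, the log2 ratio for lubiprostone was below 0 in WT mice and above 0 in CF mice, with 1 pool per group. H2-Ob was dim in both CF pools, so that its direction in CF mice was not measured. The difference between genotypes was not tested. As the ratio in CF mice minus that in WT mice, it was 0.64 for H2-Aa, 0.83 for H2-Ab1, 0.79 for H2-Eb1 and 0.76 for Cd74. It was 0.97 for H2-DMa, whose probe sets both had this layout, and 0.42 for H2-DMb2. It was 2.18 for H2-Oa, 1.04 for H2-Ob and 1.47 for Ciita, each computed with dim signals in CF control and WT + lubiprostone, and for H2-Ob also in CF + lubiprostone. With dim signals set to the median these became 1.09 for H2-Oa, 0.67 for H2-Ob and 1.07 for Ciita, the CF part for H2-Ob being only a ratio of array medians. The same number is the genotype difference in treated mice minus that in untreated mice.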

How the results depend on the processing

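No paired analysis was possible because each group is 1 array. None of the class II medians or counts turned direction. With probe sets kept only at the 75th percentile, 5 class II genes were left, and all 5 were lower in the CF control than in the WT control pool and in WT + lubiprostone than in WT control (9 and 9 otherwise), and 0 instead of 2 were lower in CF + lubiprostone than in WT + lubiprostone. Using the brightest probe set of each gene, 1 gene (H2-Ab1, log2 ratio -0.03) instead of 0 was lower in the treated than in the untreated CF pool. The next 2 alternatives were chosen after seeing the data. Without H2-Aa, H2-Ab1, H2-Eb1 and Cd74 the median in CF control over WT control was -0.88 instead of -0.59, and 5 genes were lower there and 5 in WT + lubiprostone, which is all that were left. With probe sets measured in at least 1 of the arrays compared, 1 gene instead of 2 was lower in CF + lubiprostone than in WT + lubiprostone, since H2-Ob was left out.

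Counts past 1.5-fold moved more. In CF control 5 genes were that much lower, but 3 with arrays scaled to the same median or with 50 added to each signal and 1 with the stricter filter. In WT + lubiprostone 2 were, but 0 with the stricter filter, with dim signals set to the median or with 50 added. In CF + lubiprostone over CF control 3 were higher, but 0 with the stricter filter. In CF + lubiprostone over WT + lubiprostone 1 was higher, but 2 with either other scaling, with the brightest probe set, with mean linear signals or with shared probe sets, and 0 with dim signals set to the median. Scaling to the same median moved the median of all genes by 0.18 in CF control over WT control and by -0.13 in CF + lubiprostone over CF control. The class II medians became -0.41 and 0.28. Since this scaling shifts all log2 ratios of a comparison alike, their distance from all genes (-0.57 and 0.39) could not change. Over all genes this scaling turned the split of 1.5-fold calls in CF + lubiprostone over CF control to 10.6% lower and 7.07% higher, against 6.77% and 9.99%. Quantile normalization gave 8.23% lower and 7.82% higher there, and 9.62% lower and 10.1% higher in CF control over WT control. Depth is not defined for arrays. Signals near the array median limit H2-Oa, H2-Ob and Ciita. Raising dim signals to the median in the gene lists, and counting only the 6 class II genes above the median in all pools, were also chosen after seeing the data.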
